A study of Mus musculus with 4 samples.

Results

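CpG islands are short stretches rich in the dinucleotide CpG that lie at many gene starts. In normal cells most of these islands carry little methylation, while the CpG sites outside islands are mostly methylated. In tumors part of the islands gains methylation, and a methylated island promoter is often found at a silent gene. The promoters described here belong to 10 genes, Lifr, Ptprm, Sipa1l2, Agap3, Ppm1h, Plcl2, Gkap1, Kazn, Trim47 and Meis2, of the 20135 genes with a measured promoter. They were selected on their methylation: both 344SQR tumors had a promoter mean near 1 to 3%, and both 344SQP tumors a higher one with little spread. The promoter values of this contrast are therefore given as a description, with no test.

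344SQP is a lung adenocarcinoma line from a p53R172HΔg/+ KrasLA1/+ mouse, and 344SQR is its derivative with acquired resistance to anti-PD1, an antibody against an inhibitory receptor of T cells. Cells (500000) of either line were injected under the skin of the leg of syngeneic 129Sv/Ev females aged 12 to 16 weeks. Every mouse of both groups received anti-PD1 at 10 mg/kg, 4 doses from day 4, and tumors were taken 24 h after the last dose. There were 2 tumors of 344SQP and 2 of 344SQR, all under anti-PD1, and each group is 1 cell line grown outside the lung, so line and resistance cannot be told apart. Reduced representation bisulfite sequencing (RRBS) reads fragments cut at the sequence CCGG and gives, at each CpG site, the share of reads that carry methylated cytosine.

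Summed over CpG sites, coverage was 116794455 and 138331886 in the 344SQP tumors and 160548303 and 174689402 in the 344SQR tumors. Of 8414014 sites listed in any tumor, 1081201 had at least 20 reads in every tumor, and 604870 of these lay in a promoter, taken as −1000 to +500 bases of every annotated transcription start site (TSS). Each strand of a CpG counts as its own site. The 10 genes held 1127 such sites, from 56 in Meis2 to 199 in Agap3, with a coverage of at least 21 reads. Sites on the same read are not independent, and all intervals cover counting error only. The site with the largest drop in a gene was picked for that drop, so its intervals give no test of it.

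Median promoter methylation over the 10 genes was 7.58% and 8.48% in the 344SQP tumors and 1.42% and 1.70% in the 344SQR tumors. The same median over the 16098 promoters with an island and at least 5 sites was 1.9004%, 1.95%, 1.66% and 1.75%. In the resistant tumors the genes lay at the level of island promoters in general, and in the parental tumors they stood above it. Their selection, on low means in 344SQR and higher ones in 344SQP, largely sets this placement. The placement and the shares that follow therefore describe the selected genes and give no test. Gene by gene, 15.5 to 61.8% of those island promoters had a lower mean in 344SQR, and 62.8 to 79.2% a lower mean in 344SQP. In these bulk tumors, fewer cells with a methylated promoter and fewer methylated alleles per cell cannot be told apart. Whether 344SQP gained or 344SQR lost methylation is not given by these values, since no other passage of either line was analysed here.

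All 10 promoters had both 344SQR tumors below both 344SQP tumors, as their selection requires; of the 16692 promoters with at least 5 sites, 5131 did so (30.7%). Over single sites, 735 of the 1127 sites of the 10 genes (65.2%) had both 344SQR tumors below both 344SQP tumors. Of all 604870 promoter sites, 79030 did so (13.1%). The 1127 sites make up the promoter means used in the selection. Site counts of the 10 genes, here and gene by gene below, therefore describe it and give no test. In the 344SQP tumors 412 of the 1127 sites had a mean of 10% or more, in the 344SQR tumors 32; of the 604870 promoter sites in all, 131064 and 116068 did. By a likelihood ratio test per site combined with Stouffer's z score per promoter, 5980 of 20135 promoters were called lower in 344SQR (29.7%) and 1770 higher (8.79%). The error of this test comes from read counts alone, with no term for variation among tumors of a line; edgeR's quasi-likelihood test, which has one, called 14 of 20124. Without the second 344SQR tumor Stouffer's z called 785 promoters higher; that tumor had 6377285 sites with at least 1 read, against 2770733 and 2695851 in the 344SQP tumors and 3772295 in the first 344SQR tumor.

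The selection gave no lower limit for the 344SQP tumors. Read as at least 5 sites, both 344SQR tumors at 3% or less, both 344SQP tumors at 10% or more, and 344SQP tumors apart by no more than 25% of their mean, it is met by 1 of the 10 genes, Sipa1l2, and 4 promoters outside the list. With 344SQP tumors at 5% or more it is met by 6 of the 10 genes and 37 other promoters, and at 3% or more by 8 and 169. At the limit of 10%, Ppm1h misses it by its second 344SQP tumor, at 9.85%. Agap3 has a 344SQR tumor at 3.18% and a 344SQP tumor at 9.93%, and Kazn has 344SQP tumors further apart, at 16.5% and 23.4%. The other 6 genes lie under 10% in both 344SQP tumors. The 4 outside the list, named here after their values were seen, are Gstp1, Kif21a, Pik3r5 and Zic5. Kif21a had 24.3% and 24.3% in the 344SQP tumors and 2.17% and 2.16% in the 344SQR tumors over 74 sites.

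**Figure D1:**
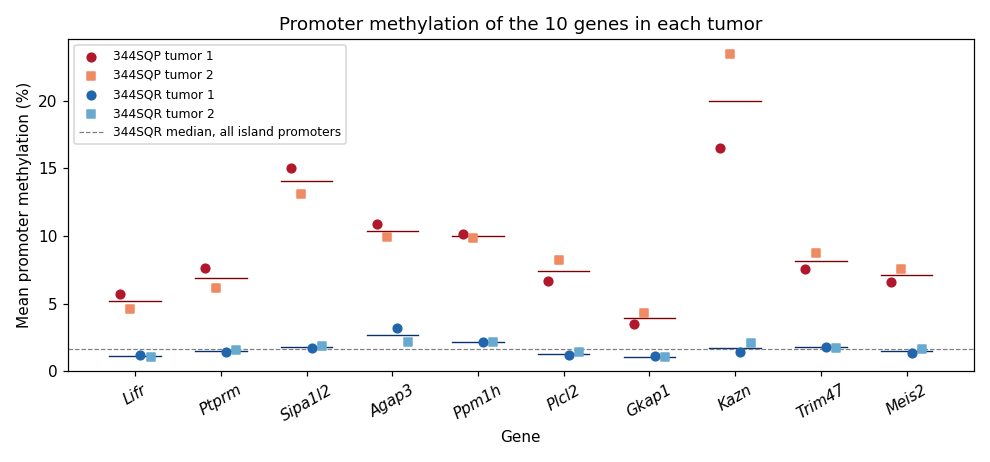
Mean promoter methylation (%) of each gene, with 1 point per tumor (circles tumor 1, squares tumor 2; red 344SQP, blue 344SQR) and a short line at the mean of each line. The dashed line is the 344SQR median of all island promoters, 1.67%. The 344SQR points run from 1.06 to 3.18%, with the highest in Agap3, and the 344SQP points from 3.50 to 23.4%.

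Lifr encodes the receptor chain for leukemia inhibitory factor, which signals with the shared chain Il6st through JAK kinases and Stat3. Its promoter (chromosome 15, plus strand; TSS at 7129559) averaged 5.76% and 4.64% in the 344SQP tumors and 1.19% and 1.06% in the 344SQR tumors over 80 sites, or 5.20% ± 0.790 against 1.13% ± 0.0882 (SD, n = 2 tumors per line). Both lines were low here, and the 344SQP tumors lay under those of the other genes except Gkap1. All 80 sites lie in the island at chr15:7128976-7130166 (mm10), 1191 bases long with 69.4% G and C and 133 CpGs, of which 65 were measured. A short island of 230 bases just upstream and both further start regions had 0 sites with enough coverage. Upstream of the TSS the 35 sites averaged 4.82% and 3.65% in the 344SQP tumors and 0.966% and 0.802% in the 344SQR tumors, and in the untranslated first exon the 39 sites averaged 6.87% and 5.90% in the 344SQP tumors and 1.40% and 1.41% in the 344SQR tumors. The site with the largest drop, on the plus strand 282 bases upstream, had 42 of 139 reads (30.2%, 95% Wilson interval 23.2 to 38.3%) in 344SQP tumor 1, 39 of 155 reads (25.2%, 95% Wilson interval 19 to 32.5%) in 344SQP tumor 2, 18 of 160 reads (11.2%, 95% Wilson interval 7.24 to 17.1%) in 344SQR tumor 1, 18 of 150 reads (12%, 95% Wilson interval 7.73 to 18.2%) in 344SQR tumor 2. This site was methylated in the resistant tumors too, above the mean of its promoter. Such sites were not particular to Lifr. The highest 344SQR site means of the 10 genes ran from 10.2% (Ppm1h) to 22.9% (Agap3), and the cause was not tested.

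Ptprm is a receptor-type tyrosine phosphatase whose outer part binds the same protein on neighbouring cells. Its promoter (chromosome 17, minus strand) averaged 7.62% and 6.17% in the 344SQP tumors and 1.43% and 1.57% in the 344SQR tumors over 121 sites, or 6.89% ± 1.02 against 1.50% ± 0.0987 (SD, n = 2 tumors per line). As the selection requires, the tumor means of the lines did not overlap. Of the 121 single sites 88 had this order, beside 13.1% of all promoter sites. The island at chr17:67352908-67355191 spans 2284 bases and 200 CpGs, 122 of them measured. The 62 sites in the 500 bases before the TSS averaged 8.32% and 6.67% in the 344SQP tumors and 1.15% and 1.21% in the 344SQR tumors, and the 42 in the 500 after it 6.41% and 6.47% in the 344SQP tumors and 1.84% and 1.99% in the 344SQR tumors. From 500 to 1000 bases after the TSS the 18 island sites averaged 7.11% and 3.11% in the 344SQP tumors and 1.70% and 2.49% in the 344SQR tumors. The 7 sites from 1000 to 500 bases before it averaged 11.5% and 3.68% in the 344SQP tumors and 1.36% and 0.6002% in the 344SQR tumors, so away from the TSS the 344SQP tumors stood further apart and the first was the higher. Across its 121 sites the 344SQP tumors correlated with r = 0.212, the lowest of the 10 genes, for sites that share library and base composition. The site with the largest drop, 393 bases upstream on the plus strand, had 22 of 56 reads (39.3%, 95% Wilson interval 27.6 to 52.4%) in 344SQP tumor 1, 7 of 54 reads (13%, 95% Wilson interval 6.42 to 24.4%) in 344SQP tumor 2, 3 of 111 reads (2.70%, 95% Wilson interval 0.923 to 7.65%) in 344SQR tumor 1, 8 of 121 reads (6.61%, 95% Wilson interval 3.39 to 12.5%) in 344SQR tumor 2. There the interval of the second 344SQP tumor overlaps those of both 344SQR tumors.

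Sipa1l2 and Agap3 are regulators of small GTPases. Sipa1l2 belongs to a family of activators of GTP hydrolysis by Rap proteins. Its promoter (chromosome 8, minus strand, TSS at 125569808) averaged 15% and 13.1% in the 344SQP tumors and 1.75% and 1.91% in the 344SQR tumors over 145 sites, or 14.1% ± 1.33 against 1.83% ± 0.110 (SD, n = 2 tumors per line). In 138 of 145 sites both 344SQR tumors lay below both 344SQP tumors, and the median site was at 11.8% in 344SQP and 0.375% in 344SQR. The island at chr8:125569055-125570613 has 176 CpGs in 1559 bases and an observed to expected CpG ratio of 1.03. Before the TSS the 85 sites averaged 17.8% and 14.7% in the 344SQP tumors and 2.10% and 2.38% in the 344SQR tumors. The 27 sites of the untranslated first exon averaged 12% and 12.9% in the 344SQP tumors and 0.797% and 0.736% in the 344SQR tumors, and the 33 sites of the first intron 10.2% and 9.22% in the 344SQP tumors and 1.65% and 1.64% in the 344SQR tumors. Parental methylation was thus highest upstream, and the resistant tumors were low in each of these parts. The site with the largest drop, 70 bases upstream, had 13 of 32 reads (40.6%, 95% Wilson interval 25.5 to 57.7%) in 344SQP tumor 1, 21 of 45 reads (46.7%, 95% Wilson interval 32.9 to 60.9%) in 344SQP tumor 2, 1 of 50 reads (2%, 95% Wilson interval 0.354 to 10.5%) in 344SQR tumor 1, 0 of 38 reads (0%, 95% Wilson interval 0 to 9.18%) in 344SQR tumor 2.

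Agap3 encodes a protein with an Arf GTPase-activating domain, ankyrin repeats and a GTPase-like domain. Over both of its start regions (chromosome 5, plus strand) it averaged 10.9% and 9.93% in the 344SQP tumors and 3.18% and 2.17% in the 344SQR tumors over 199 sites, or 10.4% ± 0.672 against 2.67% ± 0.712 (SD, n = 2 tumors per line). That mean joins 2 unlike regions. Around the upstream starts (chr5:24451177-24452707) the 119 sites averaged 1.46% and 1.36% in the 344SQP tumors and 1.12% and 1.11% in the 344SQR tumors. Around the downstream start at 24474214 (chr5:24473214-24474714) the 80 sites averaged 24.9% and 22.7% in the 344SQP tumors and 6.24% and 3.74% in the 344SQR tumors. The upstream island was near 1% in every tumor, and the difference between the lines lies at the downstream island, at chr5:24474072-24475373, inside the gene and mostly in coding exon. There 121 of 146 CpGs were measured, and the 159 sites averaged 19.8% and 20.9% in the 344SQP tumors and 4.46% and 3.12% in the 344SQR tumors. With the TSS at the 5′ end of the gene alone, Agap3 had 1.41% against 1.11%, so the gap between the lines is that of an internal start and hardly that of the first. The first 344SQR tumor was above the second at the downstream start, and there the resistant tumors were not at the level of island promoters in general.

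**Figure D2:**
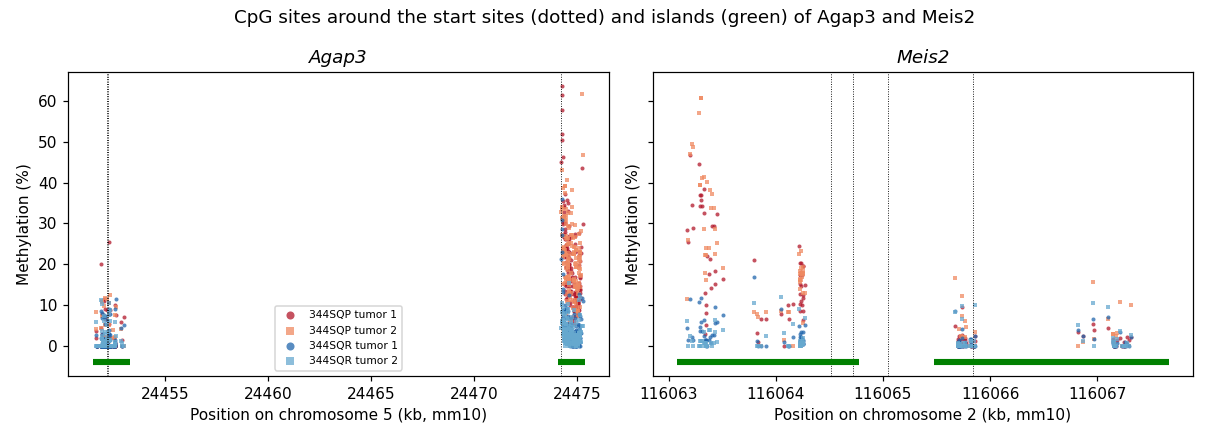
Methylation (%) of each measured CpG site, for both tumors of each line, against position on the chromosome (kb, mm10) in the promoters and islands of Agap3 and Meis2; dotted lines are annotated TSSs and green bars are CpG islands. At Agap3 the lines separate at the downstream start (23.8 against 4.99%) and far less at the upstream starts (1.41 against 1.11%), and at Meis2, on the minus strand, they separate in the left island.

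Ppm1h, Plcl2 and Gkap1 act in phosphorylation and second messenger signaling. Ppm1h is a phosphatase that removes phosphate from Rab proteins. Its promoter (chromosome 10, plus strand, TSS at 122678778) averaged 10.2% and 9.85% in the 344SQP tumors and 2.19% and 2.17% in the 344SQR tumors over 86 sites, or 10% ± 0.223 against 2.18% ± 0.0134 (SD, n = 2 tumors per line), the smallest spread between 344SQP tumors of the 10 genes. In 73 of 86 sites both 344SQR tumors lay below both 344SQP tumors. The island at chr10:122678595-122680069 is 1475 bases long and lies mostly downstream of the TSS. In it the 71 sites of the untranslated first exon averaged 11.2% and 10.3% in the 344SQP tumors and 2.20% and 2.15% in the 344SQR tumors. The 13 coding sites inside the promoter window averaged 3.88% and 6.99% in the 344SQP tumors and 1.94% and 2.35% in the 344SQR tumors. Past 1000 bases from the TSS the 5 island sites averaged 14.9% and 12.8% in the 344SQP tumors and 13.2% and 34.4% in the 344SQR tumors, and there the lines overlapped and the second 344SQR tumor was the highest. The window of Mir8104 overlaps that of Ppm1h, and its 113 sites, largely the same ones, averaged 9.53% and 9.65% in the 344SQP tumors and 2.41% and 2.38% in the 344SQR tumors.

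Plcl2 resembles phospholipase C but lacks its enzyme activity, and binds inositol phosphates. Its promoter (chromosome 17, plus strand, TSS at 50509403) averaged 6.68% and 8.22% in the 344SQP tumors and 1.22% and 1.42% in the 344SQR tumors over 111 sites, or 7.45% ± 1.09 against 1.32% ± 0.139 (SD, n = 2 tumors per line). The 78 sites in the 500 bases before the TSS averaged 8.70% and 10.1% in the 344SQP tumors and 1.21% and 1.22% in the 344SQR tumors. The 33 sites in the 500 bases after it averaged 1.91% and 3.88% in the 344SQP tumors and 1.25% and 1.88% in the 344SQR tumors, and the 12 sites of the following 500 bases 2.20% and 3.59% in the 344SQP tumors and 1.68% and 1.46% in the 344SQR tumors. The gap between the lines was thus on the upstream side of the start, and downstream the first 344SQP tumor lay close to the second 344SQR tumor. The island at chr17:50508638-50510151 has 71.7% G and C, with 93 of its 176 CpGs measured. The site with the largest drop, 320 bases upstream, had 15 of 96 reads (15.6%, 95% Wilson interval 9.70 to 24.2%) in 344SQP tumor 1, 36 of 129 reads (27.9%, 95% Wilson interval 20.9 to 36.2%) in 344SQP tumor 2, 2 of 151 reads (1.32%, 95% Wilson interval 0.364 to 4.70%) in 344SQR tumor 1, 0 of 135 reads (0%, 95% Wilson interval 0 to 2.77%) in 344SQR tumor 2.

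Gkap1 anchors the cGMP-dependent protein kinase Prkg1. Its promoter (chromosome 13, minus strand, TSS at 58274188) averaged 3.50% and 4.34% in the 344SQP tumors and 1.11% and 1.08% in the 344SQR tumors over 172 sites, or 3.92% ± 0.599 against 1.09% ± 0.0231 (SD, n = 2 tumors per line), the smallest difference of the 10 genes. It had the opposite layout to Plcl2. Upstream of the TSS its 78 sites averaged 2.11% and 1.94% in the 344SQP tumors and 0.939% and 1.05% in the 344SQR tumors, and in the untranslated first exon its 33 sites averaged 1.64% and 1.27% in the 344SQP tumors and 0.988% and 0.741% in the 344SQR tumors. The 61 sites of the first intron, within the same island (chr13:58273250-58275099), averaged 6.27% and 9.07% in the 344SQP tumors and 1.39% and 1.29% in the 344SQR tumors. The first intron thus carried most of the gap. Both 344SQR tumors lay below both 344SQP tumors in 63 of 172 sites, the lowest share of the 10 genes. The largest drop was 390 bases into the gene, with 48 of 163 reads (29.4%, 95% Wilson interval 23 to 36.9%) in 344SQP tumor 1, 54 of 131 reads (41.2%, 95% Wilson interval 33.2 to 49.8%) in 344SQP tumor 2, 6 of 193 reads (3.11%, 95% Wilson interval 1.43 to 6.62%) in 344SQR tumor 1, 2 of 182 reads (1.099%, 95% Wilson interval 0.302 to 3.92%) in 344SQR tumor 2.

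Kazn encodes kazrin, a protein of cell junctions that binds the desmosome-linked protein periplakin. Its promoter (chromosome 4, minus strand, TSS at 142239401) averaged 16.5% and 23.4% in the 344SQP tumors and 1.41% and 2.08% in the 344SQR tumors over 84 sites, or 19.98% ± 4.90 against 1.74% ± 0.471 (SD, n = 2 tumors per line). It had the largest difference of the 10 promoter means and the largest spread between 344SQP tumors, which still lay far above both 344SQR tumors. In 84 of 84 sites both 344SQR tumors were below both 344SQP tumors, and the lowest site in 344SQP averaged 4.91%. A single measured site lies 26 bases before the TSS, at 24.3% and 38.6% in the 344SQP tumors and 5.34% and 11.5% in the 344SQR tumors. The 49 sites of the untranslated exon averaged 16% and 22% in the 344SQP tumors and 1.09% and 1.60% in the 344SQR tumors. The 23 coding sites averaged 19.4% and 28.7% in the 344SQP tumors and 1.72% and 2.80% in the 344SQR tumors. The second 344SQP tumor was the higher one in each of these parts. The island at chr4:142238713-142239622, 910 bases long, is the shortest of those that hold measured sites.

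**Figure D3:**
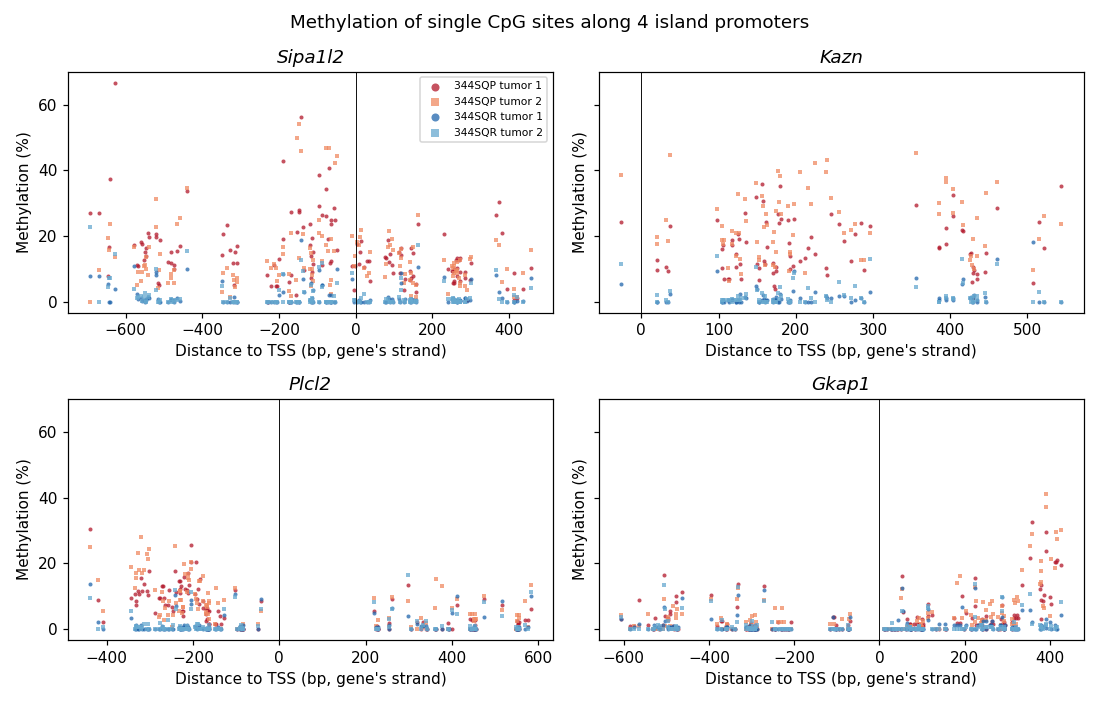
Methylation (%) of every measured CpG site against its distance to the TSS (bases, in the direction of the gene) for Sipa1l2, Kazn, Plcl2 and Gkap1, with circles for tumor 1 and squares for tumor 2 of 344SQP (red) and 344SQR (blue). Sipa1l2 and Kazn separate at most sites, Plcl2 before the TSS (9.38 against 1.21%) and Gkap1 inside the first intron (7.67 against 1.34%).

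Trim47 belongs to the RING finger family of ubiquitin ligases. Its promoter (chromosome 11, minus strand, TSS at 116110246) averaged 7.54% and 8.74% in the 344SQP tumors and 1.80% and 1.75% in the 344SQR tumors over 73 sites, or 8.14% ± 0.849 against 1.78% ± 0.0403 (SD, n = 2 tumors per line). The 29 sites upstream of the TSS averaged 11.3% and 14.9% in the 344SQP tumors and 2.49% and 1.78% in the 344SQR tumors, and the 38 coding sites 4.62% and 4.06% in the 344SQP tumors and 1.21% and 1.68% in the 344SQR tumors. The upstream sites carried the larger gap. Trim47 is also the gene with the best covered flank, 51 sites downstream of its island (chr11:116108885-116110585), which averaged 77.5% and 74.5% in the 344SQP tumors and 67.3% and 54.5% in the 344SQR tumors. From 1 to 2 kb past the TSS the 11 flank sites averaged 51.4% and 38.2% in the 344SQP tumors and 29.9% and 14.6% in the 344SQR tumors. From 2 to 3 kb the 6 sites averaged 51.4% and 52.8% in the 344SQP tumors and 24.7% and 13.8% in the 344SQR tumors, and from 3 to 4 kb the 19 sites 87.9% and 87.1% in the 344SQP tumors and 82.3% and 64% in the 344SQR tumors. The 15 sites from 4 to 5 kb averaged 94.1% and 93.9% in the 344SQP tumors and 92.8% and 88% in the 344SQR tumors. Every tumor was more methylated from 3 to 4 kb than nearer the island. Of these intervals the lines stood furthest apart from 2 to 3 kb, with the second 344SQR tumor below the first.

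Meis2 is a homeobox transcription factor that binds DNA with Pbx proteins. Over its 4 annotated starts (chromosome 2, minus strand) it averaged 6.62% and 7.59% in the 344SQP tumors and 1.40% and 1.65% in the 344SQR tumors over 56 sites, or 7.11% ± 0.684 against 1.52% ± 0.182 (SD, n = 2 tumors per line). The starts were unlike. The window around the first start, at 116065839, averaged 1.40% and 2.02% in the 344SQP tumors and 0.972% and 1.52% in the 344SQR tumors over 31 sites, and those around the second, at 116065047, 1.33% and 2.09% in the 344SQP tumors and 0.879% and 1.39% in the 344SQR tumors over 30. Around the third, at 116064721, the mean was 8.86% and 10.5% in the 344SQP tumors and 1.38% and 0.837% in the 344SQR tumors over 32 sites, and around the fourth, at 116064512, 13.1% and 14.5% in the 344SQP tumors and 1.92% and 1.83% in the 344SQR tumors over 25. These windows overlap and share sites. The first island (chr2:116065476-116067669) had 1.39% and 2.32% in the 344SQP tumors and 1.09% and 1.54% in the 344SQR tumors, and the lines overlapped there. The second island (chr2:116063078-116064778), further into the gene, had 18.6% and 23.3% in the 344SQP tumors and 3.07% and 1.72% in the 344SQR tumors over 58 sites. As in Agap3, the 5′-most start did not carry the difference: with that TSS alone Meis2 had 1.71% against 1.24%, and its tumors overlapped between the lines.

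Outside the islands, up to 5 kb to either side, coverage was thin. 6 of the 10 genes had at least 3 flank sites, and over them the median of the flank means was 52.5% and 60.1% in the 344SQP tumors and 46.9% and 52% in the 344SQR tumors. Over all 6605 island promoters with such flanks it was 62.5%, 63.8%, 58% and 54.7%. With flanks of 2 kb the median was 45.9%, 43.8%, 28.2% and 27.1%, over 4 genes. Of the 27 sites in the upstream flank of Agap3, 26 are those of the promoter of the neighbouring gene Tmub1, which averaged 2.31% and 1.46% in the 344SQP tumors and 1.82% and 1.80% in the 344SQR tumors, and they are counted in the Agap3 flank here. Its 11 downstream flank sites averaged 94.4% and 95.5% in the 344SQP tumors and 91.9% and 87.2% in the 344SQR tumors. Both 344SQR tumors lay below both 344SQP tumors in 4 of the 6 flanks, Sipa1l2, Kazn, Trim47 and Agap3, beside 2827 of 6605 island promoters with flanks (42.8%). The 4 sites upstream of the Kazn island averaged 86.1% and 92.7% in the 344SQP tumors and 85.3% and 81.6% in the 344SQR tumors. The gap was larger at the 5 sites downstream of it. They averaged 51.2% and 52.1% in the 344SQP tumors and 38.5% and 30.9% in the 344SQR tumors, a mean that joins unlike sites. From 1 to 2 kb past the TSS, 2 of them averaged 27.9% and 24.5% in the 344SQP tumors. In the 344SQR tumors these had 7.44% and 8.06%. The 2 from 5 to 6 kb averaged 90.5% and 92.9% in the 344SQP tumors. In the 344SQR tumors those had 86.7% and 67.4%. The 22 flank sites of Meis2 averaged 38.3% and 50% in the 344SQP tumors and 34.5% and 50.5% in the 344SQR tumors, with no order between the lines. The 9 flank sites of Ppm1h were lower, at 10.8% and 19.7% in the 344SQP tumors and 9.68% and 11.6% in the 344SQR tumors. Lifr and Plcl2 had 0 flank sites, and Ptprm and Gkap1 had 2 each.

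**Figure D4:**
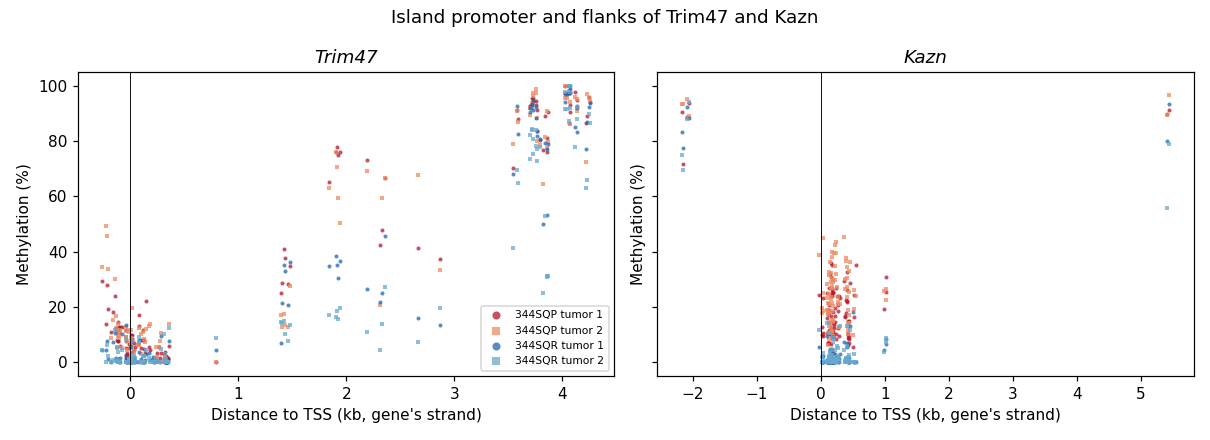
Methylation (%) of each measured CpG site of Trim47 and Kazn against distance to the TSS (kb, in the direction of the gene), in the island promoter and its flanks, with circles for tumor 1 and squares for tumor 2 of 344SQP (red) and 344SQR (blue). The sites near the TSS lie low in 344SQR and those past 3 kb from it lie high in all tumors; the 51 Trim47 flank sites average 76 against 60.9%.

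The genes were selected as island promoters, a class defined by G and C content and CpG density, so part of what follows is set by that choice. The windows with measured sites had a median of 64.3% G and C over the 10 genes, beside 55.4% over the 16692 promoters with at least 5 sites, and 82.1 against 48 CpGs per kb. CCGG, the cut site of the enzyme, occurred 12 against 5.33 times per kb. The densest was Gkap1, with 119.9 CpGs per kb, more than 99.5% of those promoters, and the sparsest Meis2, with 50.6. The 10 genes also had more measured sites, a median of 98.5 against 34. Over the 16098 promoters with an island and at least 5 sites the median was 35. The part of the number of sites in the selection of the 10 genes was not tested. Where both strands of a CpG were measured, the strands differed most in the second 344SQP tumor at Kazn: over 31 CpGs of Kazn the median absolute difference between strands was 3.49 and 7.01 points in the 344SQP tumors and 0.444 and 0.901 in the 344SQR tumors. In the second 344SQP tumor the plus strand averaged 18.9% and the minus strand 23.8% in Kazn, and 15.8% and 10.6% in Sipa1l2.

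Of the 10 genes, 8 had a promoter in the RefSeq table (GRCm38.p6), 250 bases before to 50 after the start, and Plcl2 and Gkap1 had none there. On either strand the GC box GGGCGG was found in 5 of the 11 promoters of these genes (Agap3, Lifr, Ptprm, Sipa1l2 and Trim47) and in 35.7% of all 32851 promoters of that length. CCAAT was found in 3 of the 11 (Lifr, Meis2 and Sipa1l2), against 37.4% of all. The E-box CACGTG and the ETS motif CCGGAAG were each found in 1 of the 11, of Kazn, against 7.15% and 8.86% of all. The cAMP response element TGACGTCA and the NRF1 core TGCGCA were in 0 of the 11, against 1.79% and 7.76% of all. CCGG overlaps the ETS motif and was found in 10 of the 11, against 52.8%. A match describes letters and not a bound factor.

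The following 120-base stretches lie outside annotated exons and hold the most measured CpGs of their promoters, for the genes among the 5 largest differences with more than 1 measured CpG in such a stretch. They show what the unmethylated and the partly methylated sequence looks like, from GRCm38 (mm10), 5′ to 3′ on the strand of the gene, with measured CpGs in capitals. Sipa1l2 (chr8:125569922-125570041, minus strand, 233 to 114 bases before the TSS) holds 17 of 17 CpGs measured, and its 26 sites averaged 15.7% and 15% in the 344SQP tumors and 1.92% and 1.71% in the 344SQR tumors. Trim47 (chr11:116110268-116110387, minus strand, 141 to 22 bases before the TSS) holds 13 of 14, and its 21 sites averaged 9.38% and 10.7% in the 344SQP tumors and 2.26% and 1.70% in the 344SQR tumors. Agap3 (chr5:24451974-24452093, plus strand, 203 to 84 bases before the first TSS) holds 21 of 22, and its 33 sites averaged 1.36% and 1.001% in the 344SQP tumors and 1.07% and 0.774% in the 344SQR tumors. The Agap3 stretch is at its first start, where the tumors of the lines overlapped over these sites, and is shown for contrast.
Sipa1l2: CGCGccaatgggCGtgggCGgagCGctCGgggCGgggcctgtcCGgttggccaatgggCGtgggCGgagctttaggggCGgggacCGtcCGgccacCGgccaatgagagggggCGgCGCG
Trim47: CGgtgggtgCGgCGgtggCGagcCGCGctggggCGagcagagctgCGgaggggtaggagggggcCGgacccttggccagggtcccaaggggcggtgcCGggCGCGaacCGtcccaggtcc
Agap3: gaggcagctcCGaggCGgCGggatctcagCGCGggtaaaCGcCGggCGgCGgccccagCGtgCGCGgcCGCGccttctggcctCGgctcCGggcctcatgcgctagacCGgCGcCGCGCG

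Of the 20 nearest promoters on the chromosome with at least 5 sites, 1 to each side of each gene and 105 to 971804 bases away, 3 had both 344SQR tumors below both 344SQP tumors (Osmr beside Lifr, Mirlet7i beside Ppm1h and Gm13977 beside Meis2), beside 30.7% of all promoters with at least 5 sites. Of these, 12 had a lower mean in 344SQR than in 344SQP. The median difference of the 20 was −0.0822 points (344SQR minus 344SQP), with a lowest of −2.36 and a highest of 10.5. Map10, the neighbour of Sipa1l2, averaged 44.9% and 73.2% in the 344SQP tumors and 55.6% and 81.1% in the 344SQR tumors, where the second tumor of each line was the higher. The 3 promoters with windows that overlap a member are outside these counts. Of them Mir8104, at Ppm1h, and Gm10472, at the upstream start of Agap3, had both 344SQR tumors below both 344SQP tumors, and G630016G05Rik, at Meis2, did not, with 2.86% and 5.37% in the 344SQP tumors and 3.93% and 5.13% in the 344SQR tumors.

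Over the 4 tumors, the promoters outside the list closest to the median of the 10 genes, by Euclidean distance of their 4 means, were Tgfbr3 (distance 1.04 points), Nr2f1 (1.12), Mal2 (1.20), and Acan and Gm26633, which share their sites (1.24). Tgfbr3, a co-receptor for TGF-beta ligands, averaged 7.08% and 7.68% in the 344SQP tumors and 1.39% and 1.25% in the 344SQR tumors over 24 sites. Nr2f1, an orphan nuclear receptor, averaged 7.36% and 9.51% in the 344SQP tumors and 1.64% and 2.001% in the 344SQR tumors over 66. Of the 10 genes, Trim47 and Plcl2 lay nearest to their median, at 0.468 and 0.994 points, and Kazn furthest, at 17.4.

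Relatives of the 10 genes were listed as paralogs or textbook partners and not for their values in these tumors. Of 58 listed, 53 had a measured promoter; 19 were called lower in 344SQR by Stouffer's z, 4 higher and 30 not, beside 29.7% lower and 8.79% higher over all promoters. The median difference was −0.484 points, beside −0.233 over all promoters. By edgeR's quasi-likelihood test 0 of them passed an adjusted p of 0.05, with 6 under an unadjusted p of 0.05, beside 1734 of 20124 promoters in all. The count of higher calls by Stouffer's z was 8 without the first 344SQP tumor and 2 without the second 344SQR tumor. Most calls by Stouffer's z were of small size, and 6 relatives differed by 5 points or more.

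Of the 14 measured genes listed for Lifr, 4 were called lower by Stouffer's z and 10 not, beside 29.7% lower over all promoters. Among those called lower, its ligand Lif averaged 5.58% and 4.17% in the 344SQP tumors and 4.13% and 3.003% in the 344SQR tumors (edgeR adjusted p = 0.602). Il6st, its signaling partner, averaged 1.43% and 1.41% in the 344SQP tumors and 1.41% and 1.67% in the 344SQR tumors, at the low level of an island promoter in every tumor. Of the 10 measured Meis, Pbx, Pknox and Tgif genes listed for Meis2, 5 were called lower by Stouffer's z (beside 29.7% of all promoters) and 0 by edgeR, among the 5 Meis1, with 13.7% and 17.8% in the 344SQP tumors and 9.70% and 14.2% in the 344SQR tumors, where the lines overlapped. Prkg1, the kinase that Gkap1 anchors, averaged 24.1% and 35.1% in the 344SQP tumors and 16.3% and 24.3% in the 344SQR tumors, and its first 344SQP tumor overlapped the second 344SQR tumor. Its paralog Prkg2 averaged 8.85% and 13.9% in the 344SQP tumors and 5.22% and 4.83% in the 344SQR tumors, with no overlap between the lines. Both were called lower by Stouffer's z, and by edgeR the adjusted p was 0.620 and 0.298.

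Of the 7 measured relatives of Sipa1l2, 2 were called lower, 2 higher and 3 not, beside 29.7% lower and 8.79% higher over all promoters. Rap1gap, another activator of GTP hydrolysis by Rap, averaged 7.67% and 13.9% in the 344SQP tumors and 5.02% and 2.85% in the 344SQR tumors and was called lower by Stouffer's z (edgeR adjusted p = 0.325). Sipa1l3, measured at 5 sites, averaged 25.1% and 5.45% in the 344SQP tumors and 13.1% and 4.78% in the 344SQR tumors and was called lower, while its tumors overlapped between the lines. Called higher were Sipa1, with 10.9% and 18.6% in the 344SQP tumors and 14.4% and 20.8% in the 344SQR tumors, and Rap1gap2, with 15.2% and 23.8% in the 344SQP tumors and 17.2% and 26.6% in the 344SQR tumors, both with overlap. Sipa1l1 averaged 1.40% and 1.18% in the 344SQP tumors and 1.37% and 1.52% in the 344SQR tumors and was not called. Ptprt, a paralog of Ptprm, was called higher, with 30.5% and 48.5% in the 344SQP tumors and 33.3% and 57.5% in the 344SQR tumors, again with overlap, while its paralogs Ptprk, with 1.30% and 1.54% in the 344SQP tumors and 1.12% and 0.758% in the 344SQR tumors, and Ptpru, with 3.94% and 3.83% in the 344SQP tumors and 3.42% and 2.88% in the 344SQR tumors, were called lower. Agap1 was called lower, with 1.49% and 1.35% in the 344SQP tumors and 1.12% and 1.12% in the 344SQR tumors. Agap2 was measured at 2 sites, with 44.6% and 18.4% in the 344SQP tumors and 33.2% and 13.8% in the 344SQR tumors, and was not called. None of the 5 measured relatives of Ppm1h, among them Rab8a, Rab10 and Lrrk2, was called by Stouffer's z.

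Read depth was not compared between the lines in the selection, which asked only for 20 reads at each site in every tumor. By edgeR's quasi-likelihood test on coverage summed over each promoter, 0 of the 10 genes passed an adjusted p of 0.05, beside 0 of 25272 promoters (0%); 1972 promoters and 2 of the 10 genes had an unadjusted p under 0.05, and DESeq2, added after seeing the data, called 120 promoters and 0 of the 10 genes. With 1 tumor left out, edgeR called 30 (second 344SQP tumor), 84 (first 344SQP), 95 (second 344SQR) and 364 promoters (first 344SQR); each of these fits has a single tumor in 1 line and takes the spread from the other line alone, so they are not used for the 10 genes. Lifr had the lowest adjusted p of the 10: its coverage in counts per 1000000 (CPM) was 118 and 134 CPM in the 344SQP tumors and 103 and 99.7 in the 344SQR tumors, a log2 difference of −0.32 ± 0.10 (SE, edgeR adjusted p = 0.544). Kazn, the other gene with an unadjusted p under 0.05, had 130 and 121 CPM against 148 and 143 (log2 0.21 ± 0.09 SE, edgeR adjusted p = 0.621). Ppm1h had 119 and 121 CPM against 122 and 117. No member's coverage was detectably different at this number of tumors.

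Markers of other cell types in the tumors were poorly covered. Of 20 marker genes 8 had a measured promoter, among them 1 of 8 leukocyte genes, Cd3e, with 2 sites at 81.1% and 75.8% in the 344SQP tumors and 81.5% and 46.6% in the 344SQR tumors, called lower by Stouffer's z. Of the epithelial markers, Epcam averaged 4.51% and 5.46% in the 344SQP tumors and 5.77% and 4.56% in the 344SQR tumors, and Cdh1 6.24% and 6.04% in the 344SQP tumors and 5.76% and 5.83% in the 344SQR tumors, and neither was called. Krt18, at 12 sites, averaged 5.69% and 4.67% in the 344SQP tumors and 2.69% and 4.73% in the 344SQR tumors and was called lower by Stouffer's z. Nkx2-1, a transcription factor of the lung lineage, averaged 9.87% and 14.5% in the 344SQP tumors and 12.7% and 18.7% in the 344SQR tumors and was called higher. In Cd3e, Krt18 and Nkx2-1 the tumors of the lines overlapped, and the edgeR adjusted p was 0.821, 0.667 and 0.737. Of the fibroblast and endothelial markers, Pdgfrb averaged 27.4% and 26.4% in the 344SQP tumors and 23.9% and 24.2% in the 344SQR tumors over 3 sites, with no overlap between the lines. Col1a1 had 90% and 100% in the 344SQP tumors and 81.4% and 96.1% in the 344SQR tumors and Pecam1 63.3% and 72.9% in the 344SQP tumors and 34.1% and 75% in the 344SQR tumors, at 1 site each. All of these had a lower mean in 344SQR, and none was called. The share of host cells in the tumors and its part in the differences at the 10 genes was not tested.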

How the data were processed

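RRBS of 4 tumors was analysed. Per the labels' processing notes, the authors trimmed reads with Trim Galore 0.4.1 and cutadapt 1.9.1, aligned them to mm10 with Bismark and Bowtie 1.1.2, and deposited per CpG site and strand the read count (coverage) and the percent of methylated and unmethylated cytosine. Methylated reads were computed as coverage times the deposited percent, rounded. Groups and replicate numbers come from the sample titles. The members and gene lists were chosen with earlier results of these data known. Sites needed 20 reads in all tumors; promoters joined the −1000 to +500 windows of all TSSs of a gene (GENCODE vM21, basic annotation). Islands were scanned on GRCm38 (200-base windows, G and C at least 0.5, observed to expected CpG at least 0.6). Calls used a likelihood ratio test per site (p floored at 2.2e-16), signed and combined by Stouffer's z, with Benjamini-Hochberg FDR under 0.05; the direction of a call is the sign of z. Depth was tested with edgeR 4.0.16 (TMM, filterByExpr, quasi-likelihood). DESeq2 1.42.0 was an alternative, R 4.3.3, Python 3.11.15 and scipy 1.17.1 were used, and intervals are 95% Wilson. With 2 tumors per line an exact 2-sided permutation test cannot go below p = 0.333, so none is given. Coverage minimum, strands, TSS choice, islands, flanks, tests, normalization, blocks and single tumors were varied. Named genes are the 10 members, promoters that meet the selection rule at 10%, the 5 closest in pattern, neighbours, markers, and relatives with 5 points or more of difference, called with the replicate block or picked by hand. A single further gene is counted among the relatives and not reported here. The statistics were tested on simulated data.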

Additional observations from a re-analysis of the deposited data

Results flagged for a closer look

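The mice were female, and sites on the Y chromosome were covered in every tumor, above the limit that a count of 0 allows: 406 and 254 counts per 1000000 of summed coverage in the 344SQP tumors and 555 and 178 in the 344SQR tumors. The first tumor of each line had more than the second, none of the 10 genes lies there, and the cause was not tested. The second 344SQR tumor had 6377285 sites with at least 1 read, the others 2770733, 2695851 and 3772295. With 2 tumors per line no tumor was tested for standing apart.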

How the results depend on the processing

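Promoters called lower (5980) and higher (1770) became 14 and 0 with edgeR, which called 0 relatives lower and 0 higher (from 19 and 4; 6 relatives had an unadjusted p under 0.05). With the replicate number as a replicate block, edgeR called 1886 lower and 481 higher, with 7 relatives lower (Lif, Meis1, Meis3, Plcl1, Prkg1, Prkg2 and Rap1gap) and 0 higher, and the Mantel-Haenszel test 5876 and 1673. Deviations of same-numbered tumors correlated over 16692 promoters (r = 0.811), but the labels give no shared batch, and 2 pairs only share a number. Leaving out each tumor gave 4419 to 6162 lower, 785 to 2578 higher (the lowest without the second 344SQR tumor), 14 to 22 relatives lower and 2 to 8 higher. In a choice made after seeing the data, the direction of a call was set by the difference of means in place of z: 52 promoters changed side, giving 5932 lower and 1818 higher.

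Median methylation of the 10 promoters was 7.79% in 344SQP and 1.63% in 344SQR. With strands merged it was 8.43% and 1.83%, and with the 5′ TSS alone 7.28% and 1.38%, where 9 of 10 genes had no overlap between the lines (Meis2 had). Without 1 tumor it was 7.58 to 8.48% and 1.42 to 1.70%. Of 100 values of single genes under an alternative, 27 moved by more than the SD between tumors. Flanks of 2 kb gave 44.8% and 27.6% (from 56.3% and 49.4%), over 4 genes in place of 6.

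By read depth, edgeR called 0 promoters (1972 at an unadjusted p under 0.05), 89 with no filter, 72 with the replicate block, 30 to 364 without 1 tumor, and DESeq2, added after seeing the data, 120; with both tumors of each line no setting called any of the 10 genes. The cause of these changes was not tested. The difference detectable at a single site was not tested.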
